A study of Mus musculus with 6 samples.

Results

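Chylomicrons are the particles in which enterocytes export dietary fat, and 10 genes of the mouse that encode their apolipoproteins and the proteins that load and export them are described here. They are Apob, Mttp, Apoa1, Apoa4, Apoc3, Apobec1, Sar1b, Pla2g12b, Cideb and Creb3l3. Members were chosen by gene name, each matched 1 row of the 54532 genes in the deposited count table, and all 10 passed the filter on low counts that left 16313 genes tested. The data are polyA RNA-seq of intestinal epithelia from mice labelled Apoe-/-, a genotype meant to lack apolipoprotein E and used as a model of atherosclerosis, which both groups carry. 3 libraries came from mice gavaged with Candida albicans, a gut yeast, and 3 from mice gavaged with phosphate-buffered saline (PBS), every 3 days for 2 weeks. The labels give no strain background, age, sex or gut segment, and do not say whether a library is 1 mouse, so each p-value reflects spread among these libraries alone, which may be technical.

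Apolipoprotein B is the scaffold of the chylomicron, and 1 copy of it stays with the particle from assembly to clearance. The microsomal triglyceride transfer protein, encoded by Mttp, moves lipid onto it as it enters the endoplasmic reticulum. The filled prechylomicron then leaves in coated vesicles that depend on the small GTPase encoded by Sar1b, and loss of MTTP, APOB or SAR1B function in people causes fat malabsorption. Apolipoproteins A-I, A-IV and C-III join the particle as surface proteins and act on cholesterol efflux, particle growth and clearance.

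In mouse intestine the Apob transcript is itself edited: the deaminase encoded by Apobec1 changes 1 cytidine to uridine, which turns a glutamine codon into a stop codon and gives the short form of the protein that chylomicrons carry. The site is shown because it links 2 of the members. It lies in exon 26 of 29, an exon of 7467 bases, at codon 2179 of 4505 in the longer of the annotated coding transcripts with the site, and its cytidine is at chr12:8008054-8008054, plus strand, GRCm38. In the window at chr12:8008024-8008084 the first capitals mark the edited CAA codon and the second the mooring sequence that the editing complex recognises, as read from the GENCODE M21 transcript in DNA letters. Counts per gene do not measure editing at this site.
Apob editing site: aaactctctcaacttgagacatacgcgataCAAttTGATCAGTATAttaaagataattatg

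The promoters of 9 members were found in RefSeq's windows for GRCm38.p6, 250 bases before to 50 after a start site, in 10 windows. Both strands were searched for 5 motifs, chosen because their factors are known to act on genes of this kind. HNF4 proteins are nuclear receptors that maintain enterocyte lipid genes, and 2 forms of their site were used. The form CAAAGTCC was found in 1 member, Cideb, against 1.4% of all 32851 windows, and the form CAAAGGTC in 1 member, Apob, against 1.2%. The GATA factor motif AGATAA was in 1 member, Creb3l3, against 11.2% of windows. The motif TGACG, the core of the site for CREB proteins, was in 2 members, Mttp and Creb3l3, against 20.8%. The GATA and CREB motifs of Creb3l3 both lay in its window at chr10:81092542-81092841, inside the annotated gene. Its other window, at chr10:81098823-81099122, spans the annotated start of the gene and held no match. The HNF1 motif GTTAAT was in 0 members, against 7.1%. These matches describe letters in the windows and are not shown to be bound. Both HNF4 matches lie on the reverse strand of their window, so the capitals show each motif's reverse complement. The windows are at chr12:7977427-7977726 on the plus strand for Apob and at chr14:55758375-55758674 on the minus strand for Cideb.
Apob promoter: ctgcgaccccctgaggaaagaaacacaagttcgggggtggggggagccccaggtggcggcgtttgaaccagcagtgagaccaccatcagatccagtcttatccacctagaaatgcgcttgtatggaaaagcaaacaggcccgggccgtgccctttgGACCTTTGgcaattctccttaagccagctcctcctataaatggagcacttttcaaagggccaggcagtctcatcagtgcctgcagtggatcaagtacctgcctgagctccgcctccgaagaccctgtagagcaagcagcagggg
Cideb promoter: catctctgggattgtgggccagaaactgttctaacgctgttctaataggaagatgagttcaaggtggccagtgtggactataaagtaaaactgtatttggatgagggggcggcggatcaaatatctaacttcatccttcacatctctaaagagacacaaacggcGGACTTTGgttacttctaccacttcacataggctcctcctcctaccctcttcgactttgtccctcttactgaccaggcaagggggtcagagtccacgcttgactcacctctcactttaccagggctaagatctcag

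Totals were between 21406930 and 24891735 counts per library, and 3 counts, taken as the upper limit for a gene with none, correspond to between 0.113 and 0.148 CPM. CPM here stands for counts brought to a common library size with TMM scaling, and the floors cover counting error only. Epithelial markers (Epcam, Krt8, Krt18, Krt19, Cdh1, Vil1 and Cldn7) summed to 11332 to 18639 CPM with PBS, compared with 16841 to 18815 CPM after Candida albicans. Apoe itself was still counted, at 83.2 ± 23.3 CPM with PBS, compared with 62.1 ± 12.5 CPM after Candida albicans (SD, n = 3 each), and counts over a whole gene cannot check a deletion that leaves part of the transcript. The 10 smooth muscle markers summed to 7055, 524 and 3493 CPM in PBS replicates 1 to 3, compared with 1792, 234 and 206 CPM in Candida albicans replicates 1 to 3, with a lower mean after Candida albicans for all 10 and overlapping groups for each. The 8 fibroblast markers spanned 101 to 715 CPM with PBS, compared with 11.3 to 175 CPM after Candida albicans, and the 10 immune markers 109 to 254 and 112 to 287 CPM. The mitochondrially encoded share of counts was 7.19 ± 1.56% with PBS and 3.92 ± 0.72% after Candida albicans, without overlap. Liver is the other large source of these apolipoproteins. Alb, the albumin gene, was between 0 and 0.34 CPM in every library, and 7 of 10 hepatocyte markers were too low to test, while their sum, 147 to 411 CPM over all libraries, was mostly Cps1, which enterocytes also express. The part that gut wall content and mitochondrial share play in the results below was not tested.

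Each of the 10 members had a higher fitted level after Candida albicans, a log2 fold change above 0, against 39.5% of genes tested, and 7 of the 10 were higher in each Candida albicans library than in any PBS library, against 17.6%. Of the 10, 7 had a log2 fold change above 1, against 4.33% of genes. Together they took 1.95, 0.89 and 0.52% of all counts in PBS replicates 1 to 3, compared with 3.01, 2.91 and 2.46% in Candida albicans replicates 1 to 3. PBS replicate 3 held the lowest value of every member, and PBS replicate 1, which also had the highest smooth muscle sum, the highest PBS value of 9. The median log2 fold change of the members was 1.39, and that of all genes tested was -0.16. The quasi-likelihood test of edgeR, with p-values adjusted by Benjamini-Hochberg over all 16313 genes, called 0 of the 10 members at an adjusted p of 0.05 and 0% of genes. The smallest adjusted p of any gene was 0.054, so no gene named below passed this test. At an adjusted p under 0.1 the members called were Cideb and Mttp, 2 of 10 against 6.61% of genes, while 7 of 10 had an unadjusted p under 0.05, against 13.4%. The DESeq2 Wald test called 7 members higher (9.12% of its genes), limma-voom 0 (0%) and limma-voom with quality weights 8 (7.55%). The edgeR test called 2 members with no count filter (1.02% of genes), 7 without PBS replicate 1 (10.1%) and 6 without replicate 1 of both groups (7.02%). In bulk RNA, fewer cells of a type and less RNA per cell cannot be told apart.

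**Figure D1:**
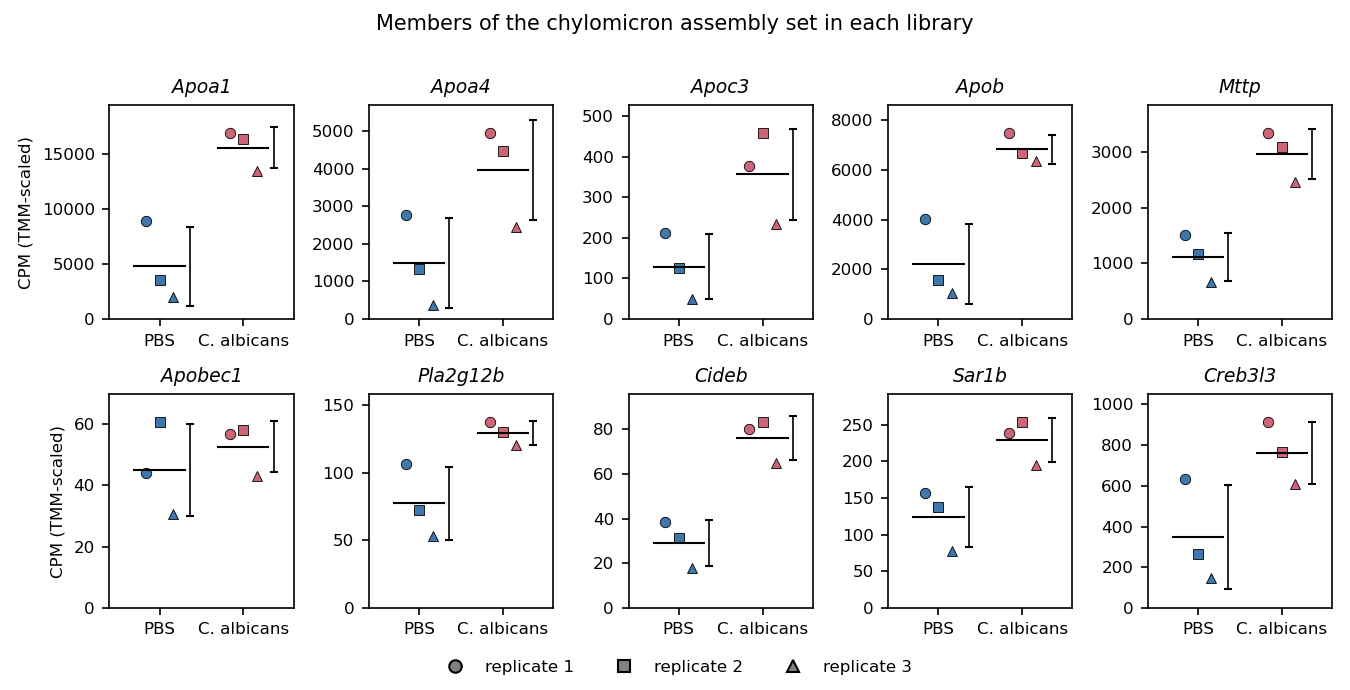
CPM (TMM-scaled, linear axis from 0) of each member in each library; symbols give the replicate number, horizontal lines the group mean and bars the SD (n = 3). Apoa1 lies between 1973 and 8854 with PBS and between 13412 and 16880 after Candida albicans, while the groups overlap for Apoa4, Apobec1 and Creb3l3.

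The 3 surface apolipoproteins lie in 1 cluster on chromosome 9, and all had higher means after Candida albicans. Apoa1 (ENSMUSG00000032083, chromosome 9, 46228580 to 46230466, plus strand, mm10) encodes apolipoprotein A-I, the main protein of high-density lipoprotein, which enterocytes also secrete on chylomicrons. It had 8854, 3558 and 1973 CPM in PBS replicates 1 to 3, compared with 16880, 16378 and 13412 CPM in Candida albicans replicates 1 to 3. Every Candida albicans library was above every PBS library, and in Candida albicans replicate 1 no gene in the table had a higher CPM. The log2 fold change was 1.70 (SE 0.55, edgeR adjusted p 0.11), 2.60 without PBS replicate 1 and 1.33 without PBS replicate 3.

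Apoa4 (ENSMUSG00000032080, chromosome 9, 46240696 to 46243459, plus strand) encodes apolipoprotein A-IV, which supports chylomicron growth and acts as a satiety signal in rodents. It had 2763, 1330 and 371 CPM in PBS replicates 1 to 3, compared with 4943, 4477 and 2437 CPM in Candida albicans replicates 1 to 3. The groups overlapped, since PBS replicate 1 was above Candida albicans replicate 3, and the PBS libraries spanned 7.45-fold, the widest range of the 10 members. Its log2 fold change was 1.41 (SE 0.70, edgeR adjusted p 0.22), 2.32 without PBS replicate 1 and 0.96 without PBS replicate 3. Annotated exons of the opposite-strand models Gm10680 and Gm47528 cover 34.8% and 34.9% of Apoa4's exon bases, so its counts depend on a strand setting that is not given in the sources used here.

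Apoc3 (ENSMUSG00000032081, chromosome 9, 46232933 to 46235636, minus strand) encodes apolipoprotein C-III, an inhibitor of lipoprotein lipase and of particle clearance. It had 212, 126 and 50.3 CPM with PBS, compared with 376, 458 and 235 CPM after Candida albicans, in replicates 1 to 3. The groups did not overlap, with Candida albicans replicate 3 just above PBS replicate 1. The log2 fold change was 1.46 (SE 0.53, edgeR adjusted p 0.14), 2.13 without PBS replicate 1 and 1.10 without PBS replicate 3.

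Genes that flank the cluster had log2 fold changes from -1.77 to 0.65. Sik3, a kinase gene upstream taken here by position, had 32.0, 34.0 and 33.5 CPM with PBS, compared with 40.0, 32.6 and 37.5 CPM after Candida albicans (log2 fold change 0.15, SE 0.12, edgeR adjusted p 0.41). Downstream, Zpr1, a zinc finger protein gene, had -0.58 (SE 0.22, edgeR adjusted p 0.15) and Bud13, a splicing factor gene also taken by position, -0.18 (SE 0.19, edgeR adjusted p 0.55). Apoa5, the fourth apolipoprotein gene there and mainly a liver gene, was at 0 to 0.15 CPM in every library and was not tested. Of the 9 listed neighbours 8 were tested, with overlapping groups for each. Their median log2 fold change was 0.07 (-0.21 under library totals only). At an unadjusted p under 0.05, 0 were higher and 1 lower, against 2182 and 2645 of 16313 genes tested. DESeq2 called 0 of them. Without PBS replicate 1, edgeR called 1 higher and 1 lower, against 1695 and 925 of its 16733 genes. Sidt2, of a lysosomal membrane protein, had 0.65 (SE 0.28), Rnf214 0.29 (SE 0.18) and Tagln, itself one of the smooth muscle markers, -1.77 (SE 0.92).

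**Figure D2:**
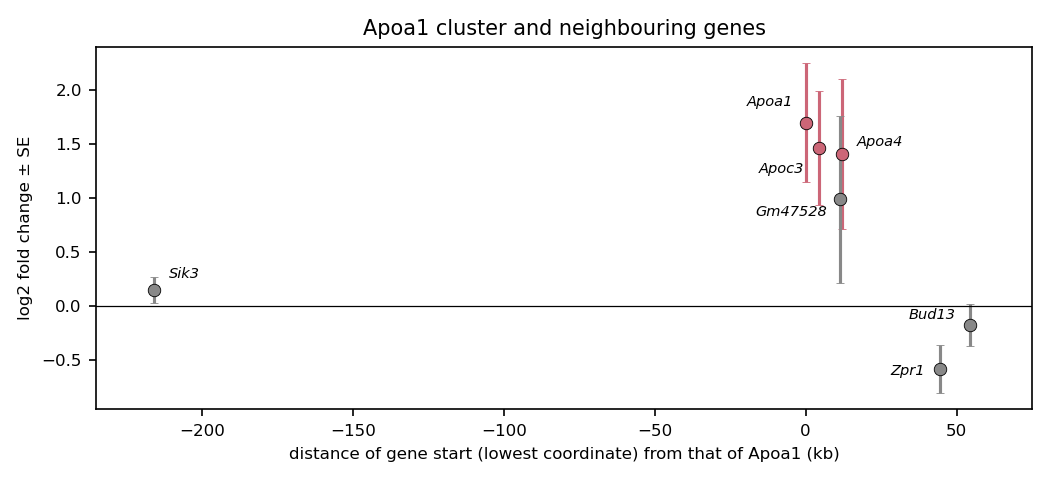
Log2 fold change (Candida albicans against PBS, edgeR, bars are SE) of the tested genes in and around the Apoa1 cluster, by distance of each gene's lowest coordinate from that of Apoa1 in kb. Apoa1, Apoc3 and Apoa4 (coloured) are at 1.70, 1.46 and 1.41, and Sik3, Bud13 and Zpr1 at 0.15, -0.18 and -0.58.

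The scaffold and its loading protein were both higher in every Candida albicans library than in any PBS library. Apob (ENSMUSG00000020609, chromosome 12, 7977648 to 8016835, plus strand) had 4050, 1592 and 1035 CPM in PBS replicates 1 to 3, compared with 7492, 6684 and 6355 CPM in Candida albicans replicates 1 to 3. The Candida albicans libraries lay within 1.18-fold of each other and the PBS libraries within 3.91-fold. Its log2 fold change was 1.62 (SE 0.51, edgeR adjusted p 0.11), 2.49 without PBS replicate 1 and 1.29 without PBS replicate 3.

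Mttp (ENSMUSG00000028158, chromosome 3, 138089854 to 138144968, minus strand) had 1507, 1164 and 658 CPM with PBS, compared with 3340, 3099 and 2469 CPM after Candida albicans, in replicates 1 to 3. The lowest Candida albicans library was well above the highest PBS library. The log2 fold change was 1.42 (SE 0.33, edgeR adjusted p 0.081), 1.82 without PBS replicate 1 and 1.18 without PBS replicate 3. The ratio of Apob to Mttp CPM in a library was 1.88 ± 0.71 with PBS and 2.32 ± 0.22 after Candida albicans (SD, n = 3 each), and the groups overlapped.

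Among 9 genes of the transfer protein's partners and of lumenal folding, 9 had a positive log2 fold change, with a median of 0.33 (6 and 0.04 under library totals only). Of these, 5 were higher without overlap (17.6% of genes tested) and 4 were higher at an unadjusted p under 0.05 (13.4%). DESeq2 called 5 higher (9.12% of its genes). P4hb, the protein disulfide isomerase that is the other subunit of the transfer protein, had 1466 ± 313 CPM with PBS, compared with 3024 ± 504 CPM after Candida albicans (log2 fold change 1.04, SE 0.25, edgeR adjusted p 0.081). Prap1, whose product binds the transfer protein in mouse intestine, had 253 ± 82.6 and 566 ± 81.4 CPM (1.16, SE 0.28, edgeR adjusted p 0.081). Tm6sf2, which acts in the lipidation of lipoproteins, had 0.86 (SE 0.24), and Dnajc3, a co-chaperone of the endoplasmic reticulum, 0.53 (SE 0.12).

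Pla2g12b and Cideb act on the size of the particle. Pla2g12b (ENSMUSG00000009646, chromosome 10, 59403660 to 59421976, plus strand) encodes a phospholipase-like protein without known enzyme activity, needed for full lipidation of lipoproteins in mouse liver. It had 106, 72.2 and 53.2 CPM with PBS, compared with 137, 130 and 120 CPM after Candida albicans, in replicates 1 to 3. The groups did not overlap, and the log2 fold change was 0.74 (SE 0.25, edgeR adjusted p 0.12).

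Cideb (ENSMUSG00000022219, chromosome 14, 55754050 to 55758458, minus strand) encodes a lipid droplet and endoplasmic reticulum protein that promotes lipidation of particles with apolipoprotein B. It had 38.3, 31.3 and 18.1 CPM with PBS, compared with 80.0, 83.3 and 64.7 CPM after Candida albicans, in replicates 1 to 3. The groups were far apart, and its log2 fold change of 1.38 (SE 0.28, edgeR adjusted p 0.078) had the lowest p of the 10 members. Exons of Nop9, a gene on the opposite strand, cover 76.3% of its exon bases, so its level rests on how shared reads were counted. Nop9 had 21.1 ± 3.39 CPM with PBS, compared with 16.3 ± 1.70 CPM after Candida albicans, a log2 fold change of -0.38 (SE 0.17, edgeR adjusted p 0.19), in the other direction.

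Export from the endoplasmic reticulum was described by Sar1b and 32 genes of the vesicle coat and its cargo. Sar1b (ENSMUSG00000020386, chromosome 11, 51763687 to 51791925, plus strand) had 156, 138 and 78.3 CPM with PBS, compared with 238, 254 and 195 CPM after Candida albicans, in replicates 1 to 3. The groups did not overlap, and the log2 fold change was 0.88 (SE 0.27, edgeR adjusted p 0.10). Sar1a, its close paralog, had 77.5, 91.8 and 88.2 CPM with PBS, compared with 89.1, 88.8 and 80.2 CPM after Candida albicans, and its log2 fold change was 0.00 (SE 0.11, edgeR adjusted p 0.99). The ratio of Sar1b to Sar1a CPM was therefore 2.02, 1.51 and 0.89 with PBS and 2.68, 2.86 and 2.44 after Candida albicans, without overlap. Reads that match both copies may be shared between them.

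Of the 32 export genes, which include Sar1a, 30 had a positive log2 fold change (median 0.51), against 22 under library totals only (median 0.23). Without overlap, 21 were higher and 0 lower, against 17.6% and 18.1% of genes tested. Before adjustment 20 had a p under 0.05, all higher (13.4% of genes tested), and DESeq2 called 18 higher (9.12% of its genes). Bet1, a SNARE of vesicle fusion, had 27.7 ± 4.29 CPM with PBS, compared with 55.0 ± 9.09 CPM after Candida albicans (0.99, SE 0.18, edgeR adjusted p 0.073). Tfg, which organises the coat at exit sites, had 1.02 (SE 0.21), and Lman1, a cargo receptor, 0.95 (SE 0.19). Tmem41b, a lipid scramblase needed for lipoprotein export in mouse liver, had 0.56 (SE 0.11). Without PBS replicate 1, edgeR called 17 of the 32 higher and 0 lower, against 1695 (10.1%) and 925 of its 16733 genes.

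**Figure D3:**
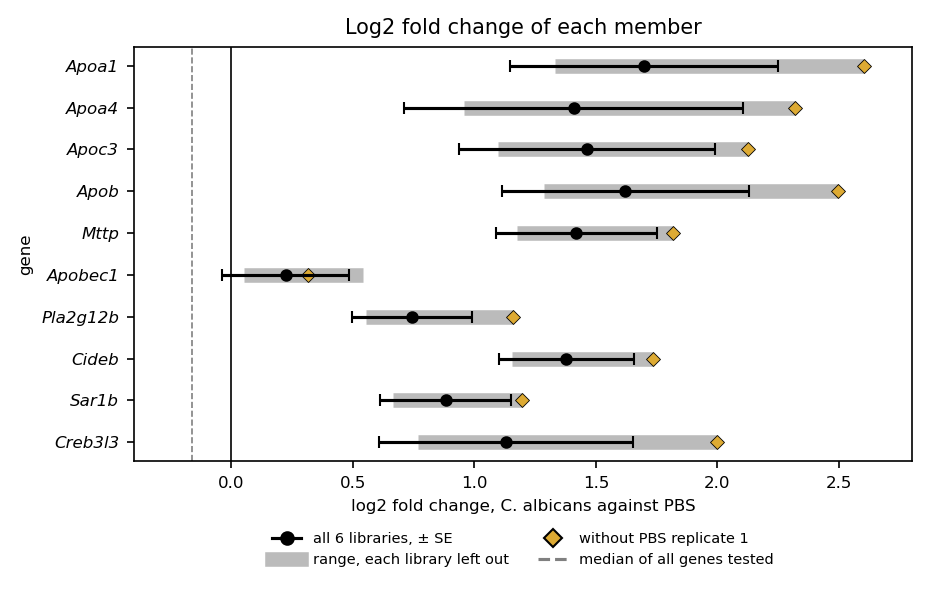
Log2 fold change of each member (points with SE, all 6 libraries), with the range when each library in turn was left out (bars) and the value without PBS replicate 1 (diamonds); the dashed line is the median of all genes tested, -0.16. Leaving out PBS replicate 1 gave the highest value for 9 of the 10 members, and Apobec1 lies nearest to 0.

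Apobec1 had the log2 fold change nearest to 0 of the 10 members. Apobec1 (ENSMUSG00000040613, chromosome 6, 122577792 to 122602444, minus strand) had 43.9, 60.6 and 30.5 CPM with PBS, compared with 56.6, 58.2 and 43.0 CPM after Candida albicans, in replicates 1 to 3. The groups overlapped, PBS replicate 2 held the highest value, and the log2 fold change was 0.22 (SE 0.26, edgeR adjusted p 0.57), which turned to -0.0499 under library totals only. Per Apob count there were 0.011, 0.038 and 0.030 Apobec1 counts with PBS and 0.0076, 0.0087 and 0.0068 after Candida albicans, a ratio that did not overlap between the groups. Among its partners, A1cf and Rbm47, RNA-binding cofactors of editing, had 0.65 (SE 0.16, edgeR adjusted p 0.085) and 0.61 (SE 0.17, edgeR adjusted p 0.094), both higher in every Candida albicans library. Syncrip, an RNA-binding protein reported to dampen editing, had -0.25 (SE 0.11, edgeR adjusted p 0.18) and was lower in every Candida albicans library.

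Creb3l3 is the transcription factor of the set. Creb3l3 (ENSMUSG00000035041, chromosome 10, 81084324 to 81098874, minus strand) encodes CREBH, a membrane-bound factor released by cleavage that activates apolipoprotein genes, Apoa4 among them, in mouse liver and intestine. It had 634, 265 and 148 CPM with PBS, compared with 914, 767 and 609 CPM after Candida albicans, in replicates 1 to 3. PBS replicate 1 was above Candida albicans replicate 3, so the groups overlapped. The log2 fold change was 1.13 (SE 0.52, edgeR adjusted p 0.20). It was 2.00 without PBS replicate 1, where it passed with an edgeR adjusted p of 0.022. Without PBS replicate 3 it was 0.77 (edgeR adjusted p 0.36).

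Of 12 other genes reported as its targets, mainly in mouse liver, 7 could be tested, with 5 positive and 2 negative (median 1.42). At an unadjusted p under 0.05, 3 were higher and 1 lower, against 2182 and 2645 of 16313 genes tested. DESeq2 called 2 higher and 1 lower, against 1414 and 1024 of its 15501 genes. Pck1 and G6pc, enzymes of glucose production, had 2.24 (SE 0.64) and 2.33 (SE 0.71). Apoc2, the activator of lipoprotein lipase, had 1.42 (SE 0.49) at 0.52 ± 0.22 CPM with PBS, and Fads1, a fatty acid desaturase, -1.32 (SE 0.31). Apoc2 in PBS thus lay near the floor.

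Of 34 transcription factors that act on enterocyte lipid genes, 19 had a positive and 15 a negative log2 fold change, and the median was 0.15, which turned to -0.13 under library totals only. Without overlap 13 were higher and 0 lower, against 17.6% and 18.1% of genes tested. At a p under 0.05 before adjustment the counts were 12 and 1, against 13.4% of genes higher. DESeq2 called 11 higher and 0 lower, against 9.12% of its genes higher. Hnf4g had 115 ± 26.4 CPM with PBS, compared with 225 ± 9.08 CPM after Candida albicans (0.97, SE 0.19, edgeR adjusted p 0.078), and its relative Hnf4a 806 ± 98.0 and 1024 ± 67.0 CPM (0.35, SE 0.17, edgeR adjusted p 0.22). Ppara, the receptor that senses fatty acids, had 13.2 ± 3.45 and 28.9 ± 4.15 CPM (1.13, SE 0.23, edgeR adjusted p 0.078). Srebf1, which drives lipid synthesis genes, had 0.85 (SE 0.17), Gata6 0.59 (SE 0.13) and Gata4, the regulator of proximal small intestine, 1.08 (SE 0.38), and the groups overlapped for Gata4.

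Other apolipoprotein genes had low levels or fold changes in both directions. Of 13 listed, 7 were tested, with 3 positive and 4 negative (median -0.07, which turned to 0.01 under DESeq2 size factors), and DESeq2 called 0 of the 6 it gave an adjusted p. Apoc2 was the only tested one higher without overlap. Apoh, of a plasma glycoprotein, had -0.95 (SE 0.39) and was the only one lower without overlap, at 2.27 ± 0.81 CPM with PBS. Over all genes tested, 17.6% were higher and 18.1% lower without overlap. Apoa2, of high-density lipoprotein, had 1.06 ± 0.41 and 0.58 ± 0.29 CPM. Apoc1 and Apoc4 were at 1.40 CPM or less in every library and were not tested. Apoe had -0.42 (SE 0.24, edgeR adjusted p 0.28).

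Upstream of assembly, 16 of 18 genes of fatty acid uptake and triglyceride resynthesis had a positive log2 fold change, with a median of 0.96 (15 and 0.70 under library totals only). Without overlap 15 were higher and 1 lower, against 17.6% and 18.1% of genes tested. At a p under 0.05 before adjustment the counts were 14 and 1, against 13.4% of genes higher. DESeq2 called 12 higher and 1 lower, against 9.12% of its genes higher. Dgat1, which makes triglyceride, had 881 ± 112 CPM with PBS, compared with 1469 ± 88.0 CPM after Candida albicans (0.74, SE 0.18, edgeR adjusted p 0.081). Gpat3, of glycerolipid synthesis, had 1.17 (SE 0.29), Soat2, which esterifies cholesterol, 0.93 (SE 0.23), and Fabp1, whose product carries fatty acids in the cytosol, 2.23 (SE 0.38).

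**Figure D4:**
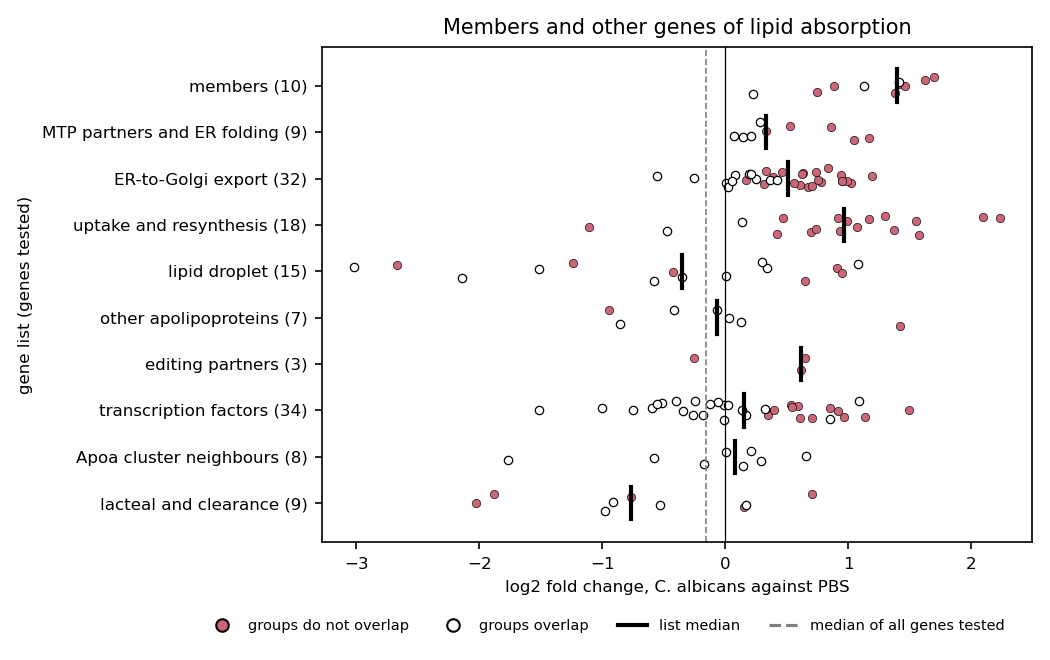
Log2 fold change (Candida albicans against PBS) of each tested gene by list, with the number tested in brackets; filled points are genes whose groups do not overlap, open points those whose groups overlap, thick lines list medians and the dashed line the median of all genes tested (-0.16). Medians are 1.39 for the members, 0.96 for uptake and resynthesis, 0.51 for export, -0.35 for lipid droplet genes and -0.07 for other apolipoproteins; vertical jitter has no meaning.

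Mature enterocyte markers outside lipid handling were higher as well. All 18, mostly brush border enzymes and transporters, had a positive log2 fold change (17 under library totals only), with a median of 1.34. Of the 18, 17 were higher without overlap and 15 had an unadjusted p under 0.05, against 17.6% and 13.4% of genes tested. Their summed level was 28992, 20524 and 9934 CPM in PBS replicates 1 to 3, compared with 56213, 52313 and 43348 CPM in Candida albicans replicates 1 to 3, the same order of libraries as the summed members. The members' sum was 0.63, 0.41 and 0.44 of that of the enterocyte markers with PBS and 0.61, 0.62 and 0.60 after Candida albicans, so the groups overlapped in this ratio. Over the 7 epithelial markers the members' sum was 1.43, 0.45 and 0.39 with PBS and 1.94, 1.72 and 1.54 after Candida albicans, and here the groups did not overlap. Those 7 markers themselves went both ways, with 3 higher and 1, Krt18, lower without overlap, against 17.6% and 18.1% of genes tested. For Mttp alone the ratio to the 18 enterocyte markers was 0.058 ± 0.007 with PBS and 0.059 ± 0.001 after Candida albicans. Apobec1, Sar1b and Pla2g12b had lower ratios to the enterocyte markers after Candida albicans, without overlap, and the other 7 members overlapped. Villus tip markers (Ada, Nt5e and Slc28a2) summed to 1614, 523 and 126 CPM with PBS, compared with 1910, 1848 and 925 CPM after Candida albicans, and the groups overlapped. The 10 crypt markers summed to 397 to 580 CPM with PBS and 282 to 487 CPM after Candida albicans. Of these, 8 had a negative log2 fold change, against 9863 of 16313 genes tested, and 1 was lower without overlap (18.1% of genes). The 10 markers of the proximal small intestine summed to 139 to 173 and 223 to 227 CPM, so their sums did not overlap. Gata4 was the most abundant, at 44.4 ± 21.6 and 94.2 ± 26.1 CPM, and its groups overlapped. Of the 7 tested, 4 had a positive and 3 a negative log2 fold change, and 2 were higher without overlap. The 8 ileal markers summed to 2502 to 5409 and 2189 to 5466 CPM, mostly Fabp6, and 1 of the 7 tested was higher without overlap. The 12 colon markers summed to 2109 to 2909 and 2239 to 3170 CPM. Among the 7 tested, 4 were positive and 3 negative, with 2 higher and 1 lower without overlap (17.6% and 18.1% of genes tested). Car1, a colon marker that was not tested, had 110 CPM in Candida albicans replicate 3 and 1.82 CPM or less in every other library. The part of cell composition or gut segment in the members' differences was not tested.

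**Figure D5:**
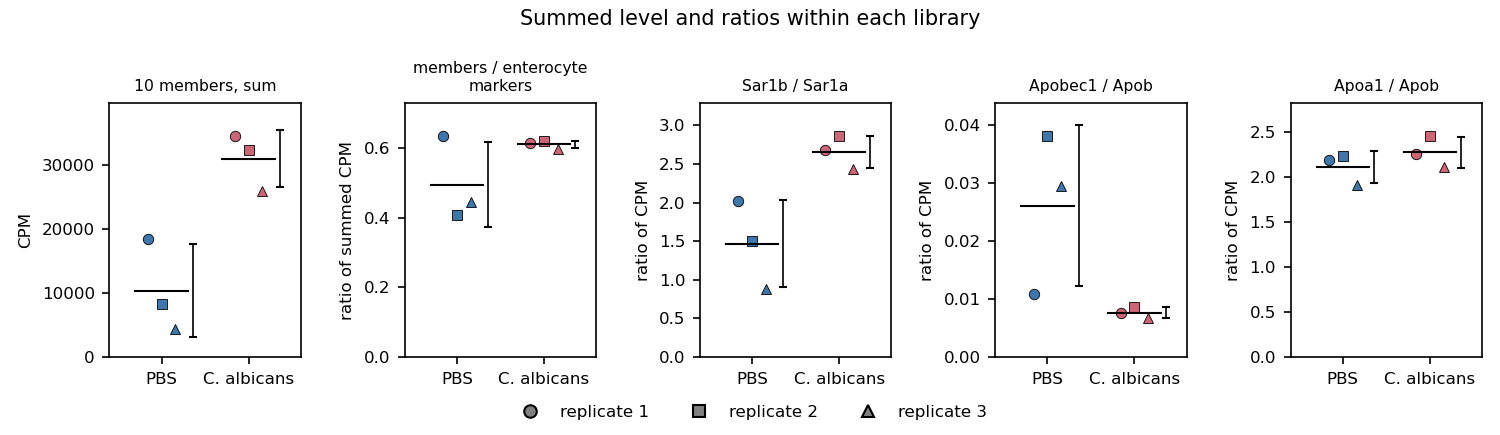
Summed CPM of the 10 members and 4 ratios within each library (linear axes from 0; symbols give the replicate number, lines the mean, bars the SD, n = 3). The sum separates the groups, the ratio to 18 enterocyte markers and that of Apoa1 to Apob do not, Sar1b over Sar1a is higher and Apobec1 over Apob lower in every Candida albicans library.

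The members were also compared per length, as CPM per kilobase of merged exons. Apoa1 was the highest in every library, at 3879 ± 2915 with PBS and 12586 ± 1516 after Candida albicans (SD, n = 3 each). Apoa4 was second in every library, at 820 ± 663 and 2178 ± 734. Mttp, at 179 ± 68.8 and 478 ± 72.5, and Apob, at 160 ± 115 and 491 ± 42.0, could not be ordered on this length, since Mttp was above Apob in 4 of 6 libraries. Apoc3, Creb3l3 and Sar1b came next, with the order of Apoc3 and Creb3l3 held in 5 of 6 libraries and that of Creb3l3 and Sar1b in 4. Pla2g12b was below Sar1b and above Cideb in every library, and Cideb, at 19.6 ± 6.89 and 51.1 ± 6.66, was above Apobec1, at 16.7 ± 5.58 and 19.5 ± 3.08, in 5 of 6. Apob was above Apoc3 in 5 of 6. The choice of length changes this order: with the longest coding sequence in place of merged exons, 7 of the 10 levels moved by more than the SD between the PBS libraries. Mttp was then above Apob in 6 of 6 libraries, and Cideb was above Apobec1 in 3 of 6. Apob came after Apoc3, Creb3l3 and Sar1b by its geometric mean, though it was above Sar1b in 4 of 6 libraries. Opposite-strand genes cover parts of the exons of Apoa4 and Cideb, as given above, so their places also rest on how shared reads were counted.

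The shape of each member's profile over the libraries was also compared. Each log2 CPM profile was centred on its own mean, and the mean profile of the 10 spanned 2.36 between PBS replicate 3 and Candida albicans replicate 1. Mttp, Cideb and Creb3l3 were closest to it, with root mean square differences of 0.14, 0.17 and 0.20 on the log2 scale, and Apobec1 farthest, at 0.66, followed by Apoa4 at 0.47. The ratio of Apoa1 to Apob CPM was 2.11 ± 0.18 with PBS and 2.27 ± 0.17 after Candida albicans, a difference smaller than the spread between libraries. Of 3840 other genes with a mean of 50 CPM or more, the 5 closest to the mean profile over the 6 libraries were Dpp4, Ugcg, Slc27a4, Slc9a3r1 and Cyp4f14, with root mean square differences of 0.063, 0.086, 0.093, 0.10 and 0.12. Dpp4, a brush border peptidase and one of the 18 enterocyte markers, had 1101, 686 and 375 CPM with PBS, compared with 1890, 1651 and 1406 CPM after Candida albicans. Slc27a4, a fatty acid transport protein of the uptake list, had 1206, 827 and 455 CPM with PBS, compared with 2415, 2005 and 1699 CPM after Candida albicans. Ugcg encodes glucosylceramide synthase, Slc9a3r1 a scaffold of the brush border and Cyp4f14 a cytochrome P450.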

How the data were processed

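The authors deposited whole-number read counts for each Ensembl gene, in 1 column per library and without normalization. Per the submitters' processing notes, featureCounts 2.0.1, HISAT2 2.2.1, Trim Galore 0.6.7 and mm10 were used; the settings and annotation release are not known from the labels. Of 54532 genes, 54495 have an identifier in GENCODE M21 (GRCm38), and 98.33% of these have the same coordinates there. Gene lengths in the table equal merged exons of M21 for 98.01%.

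Analysis of the counts used edgeR 4.0.16 in R 4.3.3 (filterByExpr with minimum count 10 and minimum total 15; TMM; glmQLFit with robust=TRUE; glmQLFTest, two-sided, no covariate) and Benjamini-Hochberg adjustment over 16313 genes at 0.05. Standard errors come from the F statistic, and log2 CPM uses a prior count of 2. As a check for duplicated libraries, counts were compared between libraries: every pair differed beyond counting noise (lowest chi-square per degree of freedom, 33.9), which does not show that the libraries are separate biological samples. Alternatives were other scalings and filters, DESeq2 1.42.0, limma-voom (limma 3.58.1), other edgeR settings, a smooth muscle covariate, the replicate block and leaving out libraries; removal of replicate 1 of both groups was chosen after seeing the data. Simulated counts were used to check the script. The members and lists were chosen with earlier results of these data known. The rule for named genes took every member and editing partner, Sar1a, genes overlapping a member, a fixed set of regulators and apolipoproteins, the 5 genes of most similar profile, marker genes at 0 or most abundant, and up to 4 genes of lowest p per pathway list. Sik3, Bud13, Alb and Car1 were taken besides. Of the genes so named, 1 is not reported here.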

Additional observations from a re-analysis of the deposited data

How the results depend on the processing

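The number of genes called was 0 in the main test and 0 under DESeq2 size factors, limma-voom, robust=FALSE, legacy=FALSE, members left out of the scaling and mitochondrial genes removed. It was 3 under upper quartile scaling, 188 under library totals only, 2438 by DESeq2, 2569 by limma-voom with quality weights, 552 with no count filter, 42 at a mean of 5 CPM or more, 42 with the smooth muscle covariate, 0 to 2620 with each library left out (above 0 without PBS replicate 1) and 2110 without replicate 1 of both groups. The members called were 7 by DESeq2, 8 by limma-voom with quality weights, 2 with no count filter, 0 to 7 with each library left out and 6 without replicate 1 of both groups, all higher, and 0 elsewhere without the block. With the replicate number as a block, 2080 genes and 8 members were called, against 6.31% of genes called higher. The number is not shown to pair libraries: same-numbered deviations correlated at 0.58, 0.36 and 0.046, and PBS replicate 2 was closest to Candida albicans replicate 3 (0.41). The members' median log2 fold change ranged from 1.03 (without PBS replicate 3) to 1.91 (without PBS replicate 1). Of 210 member values under alternatives, 1 changed sign, Apobec1 at -0.0499 under library totals only, and 38 passed the threshold. The median of all genes was -0.16, -0.08, -0.20 and -0.45 under TMM, DESeq2 size factors, upper quartile and library totals, and 45.2, 54.5, 41 and 13.8% of unadjusted calls were higher. The cause of these differences was not tested. Depth limits the named genes near 1 CPM or lower most, among them Apoc2, Apoa2, Pnpla3 and Gpihbp1.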

Other observations

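Cytosolic lipid droplet genes, which store and release fat that is not exported, were divided. Of 18 listed, 15 were tested, with 7 positive and 8 negative log2 fold changes and a median of -0.35. Without overlap 3 were higher and 3 lower, close to the 17.6% and 18.1% of all genes tested. The coat protein genes Plin2 and Plin3 had 60.9 ± 9.94 and 259 ± 80.9 CPM with PBS, compared with 95.3 ± 2.55 and 484 ± 46.1 CPM after Candida albicans (0.64, SE 0.14, and 0.90, SE 0.26). Mgll, which splits monoglyceride, had 23.3 ± 10.8 and 9.86 ± 1.75 CPM (-1.24, SE 0.34), and Pnpla3, a lipase-like droplet protein, 1.79 ± 0.33 and 0.28 ± 0.03 CPM (-2.67, SE 0.38). At an unadjusted p under 0.05, 3 of the 15 were higher and 3 lower, against 2182 and 2645 of 16313 genes tested. DESeq2 also called 3 higher and 3 lower, against 1414 and 1024 of its 15501 genes. None of the 15 passed an adjusted p of 0.05 in edgeR's test, the smallest being 0.073 for Pnpla3.

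Genes of the receiving side, lacteals and the clearance of chylomicrons, had 3 positive and 6 negative log2 fold changes among 9 tested (median -0.76). Of all genes tested, 39.5% had a positive log2 fold change. Gpihbp1, which holds lipoprotein lipase on capillaries, had 1.27 ± 0.62 CPM with PBS, compared with 0.34 ± 0.09 CPM after Candida albicans (-1.88, SE 0.51, edgeR adjusted p 0.091). Lpl, the lipase gene, had 12.8, 3.27 and 2.14 CPM with PBS, compared with 0.94, 1.95 and 1.57 CPM after Candida albicans (-2.03, SE 0.73, edgeR adjusted p 0.14). Lrp1, a receptor for remnants, had a log2 fold change of 0.70 (SE 0.25). Endothelial markers summed to 23.9 to 37.7 CPM with PBS, compared with 15.7 to 23.8 CPM after Candida albicans, so the sums nearly touched. Of the 7 markers, 2 had a positive log2 fold change, 5 a negative one, and 1 was lower without overlap. The part of endothelial content in the values of the lacteal and clearance genes was not tested.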
